A study of Danio rerio with 24 samples.

Results

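The 7 genes described here belong to bone and to the cells that build and resorb it, and were followed through the first days of caudal fin regeneration in zebrafish (Danio rerio). They are ifitm5, enam, spp1, acp5a, serpinh1b, runx2b and sp7, taken by name with earlier results of these data known. Every probe set that the platform annotation gives only to 1 of these genes was used. These are 8 of the 15502 probe sets on the array, 2 of them for runx2b and 1 for each of the other genes. The study measured 24 Affymetrix zebrafish arrays in 8 groups of 3. Memory fins came from wild-type fish injected with streptozocin at 350 mg/kg, which destroys beta cells of the pancreas, on 5 days up to day 19 and then kept for 60 days without the drug, and were sampled at 0, 12, 24 and 48 h after amputation. Control fins came from wild-type fish injected with citrate buffer alone, although the series design calls them untreated, and were sampled at the same times. No blood glucose value of these fish was used here. The labels name 15 fins and 3 samples for each time without saying whether those samples came from different fish, and if they did not, the p-values measure only a technical spread. They also do not say how much of the stump was taken with the regrowing tissue.

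The rays of the fin are dermal bones lined by osteoblasts, which lay down matrix directly and without a cartilage model. After amputation the osteoblasts near the cut are known to lose their mature character, to divide and to move outward, and then to mature again in the regenerate, while osteoclasts, which resorb bone, are recruited to the stump. Runx2 and Sp7 are transcription factors that commit cells to the osteoblast fate. Ifitm5 is a membrane protein of mineralising osteoblasts, and its human counterpart is mutated in a form of brittle bone disease. Enamelin (enam) is known in mammals as a matrix protein of tooth enamel, and osteopontin (spp1) is an acidic phosphoprotein of bone that osteoclasts and macrophages also make. Both belong to the family of secreted calcium-binding phosphoproteins. In RefSeq's gene order for zebrafish (assembly GRCz12tu) enam lies beside the family members scpp5, scpp7, ambn, odam and scpp9, and spp1 lies beside scpp8. Acp5a is the tartrate-resistant acid phosphatase used as a marker of osteoclasts. Serpinh1b, also called Hsp47, is the collagen chaperone of the endoplasmic reticulum, and its gene is inducible by heat shock in vertebrates.

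All levels are deposited log2 signals on which a step of 1 is a doubling. Because probe sets differ in how well they bind, levels were compared between groups and not between genes. Changes are log2 differences ± standard error (SE) from limma, fitted to 24 arrays and 10140 probe sets, and a probe set counted as called where its p, adjusted by Benjamini and Hochberg's method, was under 0.05. Probe sets were tested where at least 3 arrays reached a log2 signal of 4, and 6 of the 8 member probe sets passed. Within a group, arrays correlated at 0.989 to 0.998 over all probe sets, and their number limits the precision. The 16 hybridisation controls averaged 9.16 to 9.31 in the later groups (24 and 48 h), against 9.64 to 9.70 in the earlier ones (0 and 12 h), so in comparisons across that step a difference between array sets cannot be told apart from time. All 15 keratinocyte markers were at or above 4 on every array. Of the markers of other tissues, 9 of 10 for skeletal muscle and 3 of 4 for cartilage, with col2a1a among them, stayed below 4 on all 24 arrays. Other tissues did give signal, as 3 of 5 endothelium markers were at or above 4 on every array. So were 1 of 5 for blood, 1 of 7 for pigment cells and 1 of 6 for nerve and Schwann cells. RNA came from whole tissue, in which fewer cells of a type and less RNA per cell cannot be told apart.

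**Figure D1:**
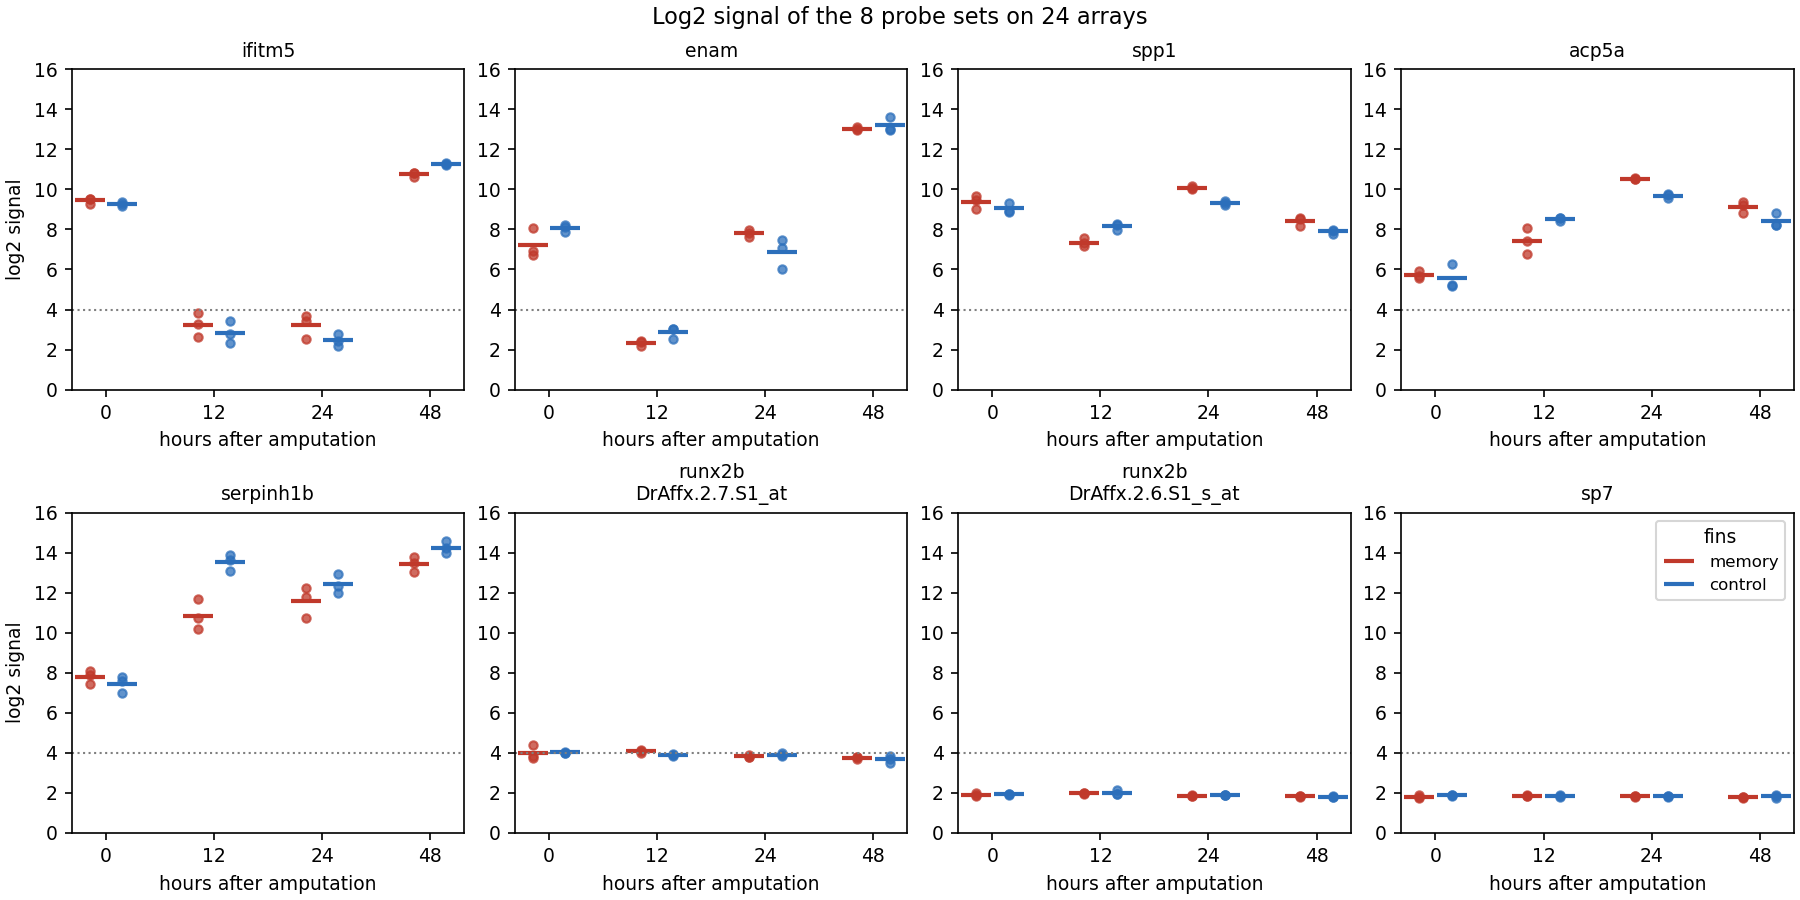
Log2 signal (vertical axis) of the 8 probe sets against hours after amputation, with a point for each array, a bar for the mean of 3 arrays, memory fins at the left of each pair and control fins at the right. The dotted line is the log2 signal of 4 used as the floor for testing, and ifitm5 lies below it in both arms at 12 and 24 h while sp7 lies below it throughout.

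The probe sets of the osteoblast factors sp7 and runx2b read mostly below the floor of 4. The sp7 probe set read 1.74 to 1.91 on all 24 arrays and was not tested. A runx2b probe set (DrAffx.2.6.S1_s_at) read 1.79 to 2.13 and was likewise not tested. The other (DrAffx.2.7.S1_at) read 3.51 to 4.38 and reached 4 on only 4 arrays. Neither sp7 nor that lower runx2b probe set therefore says whether the gene was expressed.

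For the tested runx2b probe set, memory fins had 4.38, 3.74 and 3.82 at 0 h, then 4.16, 3.98 and 4.09 at 12 h, then 3.81, 3.87 and 3.77 at 24 h, and 3.76, 3.67 and 3.78 at 48 h. Control fins had 4.0, 3.99 and 4.06 at 0 h, then 3.93, 3.89 and 3.85 at 12 h, then 3.83, 3.96 and 3.87 at 24 h, and 3.51, 3.83 and 3.67 at 48 h. In each arm the 48 h mean was the lowest, and each neighbouring pair of groups in the order of the 8 means overlapped. Only 48 h against 0 h in control fins was called (-0.35 ± 0.12, adjusted p = 0.0149), a call lost without control 48 h replicate 1 (-0.27, adjusted p = 0.0848) and with quantile normalisation repeated (adjusted p = 0.0671). All control values at 48 h lay under the floor of 4 and those at 0 h lay beside it, so this change is not fully measured. In memory fins the same change was -0.24 ± 0.12.

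The paralogue runx2a, which belongs to the wider list of osteoblast transcription factors, was well above the floor and changed strongly. In memory fins it fell by 2.60 ± 0.20 at 12 h and fell by 2.25 ± 0.20 at 24 h against 0 h, and at 48 h it stood at 0.32 ± 0.20, which was not called. In control fins it fell by 2.28 ± 0.20 at 12 h and fell by 1.89 ± 0.20 at 24 h, and its 48 h value was 0.42 ± 0.20, not called. Of the 21 measured factors on the list, 12 were lower and 5 higher in memory fins at 12 h against 0 h, and 11 were lower and 5 higher in control fins. Over all tested probe sets 34.0% were lower and 35.6% higher in memory fins, and 32.5% were lower and 36.0% higher in control fins. The members that fell included dlx6a (-3.09 ± 0.27 in memory and -2.60 ± 0.27 in control fins), a homeobox factor of skeletal development, and runx3 (-2.65 ± 0.26 and -2.45 ± 0.26), a relative of runx2. The largest rise on the list was sox9b, a zebrafish gene for the cartilage factor Sox9, at 3.74 ± 0.32 in memory and 3.66 ± 0.32 in control fins. At 48 h against 24 h, 9 of the 21 were higher and 1 lower in memory fins, where 14.4% of all tested probe sets were higher and 13.1% lower. In control fins 10 were higher and 3 lower, where 15.0% of all were higher and 15.9% lower. In that step runx2a was at 2.57 ± 0.20 in memory and 2.32 ± 0.20 in control fins.

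Among the matrix genes, the ifitm5 signal fell below the floor after amputation and came back above its starting level between 24 and 48 h. Memory fins had 9.53, 9.54 and 9.29 at 0 h, then 3.80, 2.61 and 3.27 at 12 h, then 3.44, 2.52 and 3.69 at 24 h, and 10.83, 10.64 and 10.82 at 48 h. Control fins had 9.27, 9.19 and 9.39 at 0 h, then 2.78, 2.34 and 3.40 at 12 h, then 2.79, 2.41 and 2.18 at 24 h, and 11.29, 11.23 and 11.30 at 48 h. All 12 arrays at 12 and 24 h lay under 4, the 0 h arrays lay together between 9.19 and 9.54, and the 48 h arrays were above every other array. The fall at 12 h was -6.22 ± 0.28 in memory and -6.44 ± 0.28 in control fins, and at 24 h it was -6.24 ± 0.28 and -6.82 ± 0.28, all against 0 h. Since the low end lies under the floor, these values say how far the signal fell and not how much transcript remained.

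From 24 to 48 h, ifitm5 gained 7.55 ± 0.28 in memory fins (adjusted p = 4.36e-14) and 8.81 ± 0.28 in control fins (adjusted p = 5.49e-15), in each arm the largest change of the 10140 probe sets tested, with a low end under the floor. Against 0 h, the 48 h level was 1.31 ± 0.28 higher in memory and 1.99 ± 0.28 higher in control fins. At 48 h the difference of memory minus control fins was -0.51 ± 0.28 and was not called (adjusted p = 0.311). It was called where only the groups compared were fitted (adjusted p = 0.0256).

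The signal of enam fell with that of ifitm5 at 12 h but returned a sampling time earlier. Memory fins had 6.71, 6.92 and 8.05 at 0 h, then 2.36, 2.18 and 2.42 at 12 h, then 7.98, 7.60 and 7.84 at 24 h, and 13.11, 12.95 and 13.02 at 48 h. Control fins had 8.10, 7.88 and 8.21 at 0 h, then 2.53, 3.05 and 3.01 at 12 h, then 7.07, 6.05 and 7.49 at 24 h, and 13.60, 12.98 and 13.03 at 48 h. The 12 h arrays of both arms were under the floor and the 48 h arrays stood far above all others, while the 0 h and 24 h arrays overlapped in memory fins and did not in control fins, where 24 h was lower.

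Against 0 h, enam changed by -4.91 ± 0.31 at 12 h, then 0.58 ± 0.31 at 24 h (not called, adjusted p = 0.0992) and 5.80 ± 0.31 at 48 h in memory fins. In control fins it changed by -5.20 ± 0.31 at 12 h, -1.19 ± 0.31 at 24 h and 5.14 ± 0.31 at 48 h. The gain between 24 and 48 h was 5.22 ± 0.31 in memory and 6.34 ± 0.31 in control fins. Memory replicate 3 at 0 h lay apart from its group at 8.05, and without it the memory rise at 24 h was called (0.99, adjusted p = 0.00430).

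Osteopontin took another course, below its 0 h level at 12 h, highest at 24 h and lower again at 48 h. Its lowest mean was at 12 h in memory fins and at 48 h in control fins. For spp1 memory fins had 9.67, 9.02 and 9.49 at 0 h, then 7.15, 7.30 and 7.56 at 12 h, then 10.07, 10.15 and 10.01 at 24 h, and 8.54, 8.56 and 8.18 at 48 h. Control fins had 8.94, 8.88 and 9.34 at 0 h, then 8.23, 8.29 and 7.96 at 12 h, then 9.32, 9.23 and 9.40 at 24 h, and 7.77, 7.99 and 7.95 at 48 h. In memory fins the 4 times did not overlap, and in control fins the 0 h and 24 h arrays did, as did those of 12 and 48 h.

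Against 0 h, spp1 changed by -2.06 ± 0.16 at 12 h, then 0.68 ± 0.16 at 24 h and -0.97 ± 0.16 at 48 h in memory fins. In control fins the changes were -0.89 ± 0.16 at 12 h, then 0.26 ± 0.16 at 24 h (not called, adjusted p = 0.145) and -1.15 ± 0.16 at 48 h. Between 12 and 24 h it gained 2.74 ± 0.16 in memory and 1.15 ± 0.16 in control fins.

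The wider list of bone matrix and mineral genes, which holds these 3 members, followed the early fall. Like the other lists, it was chosen with earlier results of these data known. Of its 21 measured genes 20 were lower and 1 was higher at 12 h against 0 h, in memory and in control fins alike. Over all tested probe sets 34.0% were lower and 35.6% higher in memory fins, and 32.5% and 36.0% in control fins. Without the 3 members, 17 of 18 were lower and 1 higher in each arm. The median change of the 21 was -2.23 in memory and -1.91 in control fins, against 0.02 for all probe sets in each arm. The collagen X genes, which mark hypertrophic cartilage in mammals and are made by osteoblasts in bony fish, were among the largest falls. At 12 h col10a1b was at -4.70 ± 0.30 in memory and -5.32 ± 0.30 in control fins, and col10a1a at -4.44 ± 0.19 and -4.96 ± 0.19. At 48 h against 24 h, 13 of the 21 were higher and 2 lower in memory fins, where 14.4% of all tested probe sets were higher and 13.1% lower. In control fins 16 were higher and 2 lower, where 15.0% of all were higher and 15.9% lower. In that step col10a1a gained 5.34 ± 0.19 in memory and 5.03 ± 0.19 in control fins, and its gap to 0 h was then 0.43 ± 0.19 in memory fins, not called, and 0.59 ± 0.19 in control fins, called.

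The osteoclast enzyme acp5a was above its 0 h level at all 3 later times in both arms, with its peak at 24 h, when ifitm5 was still under the floor and spp1 was at its highest. Memory fins had 5.58, 5.91 and 5.69 at 0 h, then 6.75, 7.41 and 8.07 at 12 h, then 10.50, 10.53 and 10.59 at 24 h, and 9.39, 9.20 and 8.82 at 48 h. Control fins had 5.25, 5.16 and 6.29 at 0 h, then 8.42, 8.58 and 8.58 at 12 h, then 9.71, 9.59 and 9.76 at 24 h, and 8.24, 8.81 and 8.20 at 48 h. In both arms the 0 h arrays were the lowest and the 24 h arrays the highest, and in control fins the 12 and 48 h arrays overlapped. Against 0 h the gains were 1.68 ± 0.27 at 12 h, then 4.81 ± 0.27 at 24 h and 3.41 ± 0.27 at 48 h in memory fins. In control fins they were 2.96 ± 0.27 at 12 h, then 4.12 ± 0.27 at 24 h and 2.85 ± 0.27 at 48 h. From 24 to 48 h acp5a fell by 1.41 ± 0.27 in memory and fell by 1.27 ± 0.27 in control fins.

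Other osteoclast genes moved less uniformly. Of 12 measured beside acp5a, 8 were higher and 2 lower in memory fins at 24 h against 0 h. There 36.7% of all tested probe sets were higher and 31.5% lower. In control fins 6 were higher and 2 lower, where 36.8% of all were higher and 31.6% lower. The proton pump subunit gene tcirg1b, needed to acidify the resorption pit, was at 1.53 ± 0.16 in memory and 1.25 ± 0.16 in control fins. The growth factor gene csf1b, a ligand of the receptor that osteoclast precursors carry, was at -1.27 ± 0.13 and -1.97 ± 0.13. Acp5 is also made by some macrophages. Of 14 macrophage and neutrophil markers, 4 were higher and 9 lower at 24 h against 0 h in memory fins, and 4 were higher and 8 lower in control fins. The receptor gene csf1ra, which is on that list and on the osteoclast list, was higher at 12 h (1.22 ± 0.26 in memory and 1.66 ± 0.26 in control fins) and at 24 h (1.25 ± 0.26 and 1.05 ± 0.26). The signal summed over the 14 markers (linear scale, divided by 1000), in which cd74a and apoeb are the brightest, was lowest at 12 h and higher at 24 h. Over the arrays cd74a read 12.15 to 14.43 and apoeb 12.83 to 14.12 in log2, while no other marker exceeded 10.14. The sum therefore mostly follows cd74a and apoeb and does not count cells. In memory fins it was 35.0 to 36.8 at 0 h, then 15.6 to 15.8 at 12 h, then 21.3 to 22.7 at 24 h and 26.6 to 28.6 at 48 h. In control fins it was 32.7 to 35.3 at 0 h, then 15.96 to 17.02 at 12 h, then 20.7 to 22.8 at 24 h and 26.4 to 29.2 at 48 h. The part of these cells in the acp5a signal was not tested.

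The collagen chaperone serpinh1b rose after amputation in both arms and stayed up. Memory fins had 7.44, 7.90 and 8.06 at 0 h, then 11.66, 10.73 and 10.18 at 12 h, then 12.22, 11.78 and 10.73 at 24 h, and 13.80, 13.47 and 13.05 at 48 h. Control fins had 7.58, 7.0 and 7.78 at 0 h, then 13.85, 13.60 and 13.08 at 12 h, then 12.91, 12.34 and 12.00 at 24 h, and 14.57, 14.21 and 13.96 at 48 h. Every cut fin was above every 0 h fin. In memory fins the 12 and 24 h arrays overlapped and the 48 h arrays were highest, and in control fins the 12 h arrays lay between those of 24 h and 48 h.

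Against 0 h, serpinh1b changed by 3.05 ± 0.37 at 12 h, then 3.78 ± 0.37 at 24 h and 5.64 ± 0.37 at 48 h in memory fins. In control fins the changes were 6.06 ± 0.37 at 12 h, then 4.96 ± 0.37 at 24 h and 6.79 ± 0.37 at 48 h. The dip of -1.10 ± 0.37 from 12 to 24 h in control fins was called (adjusted p = 0.0424), but not without control 12 h replicate 1 (-0.93, adjusted p = 0.128), without control 24 h replicate 3 (-0.89, adjusted p = 0.171) and under several other settings.

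**Figure D2:**
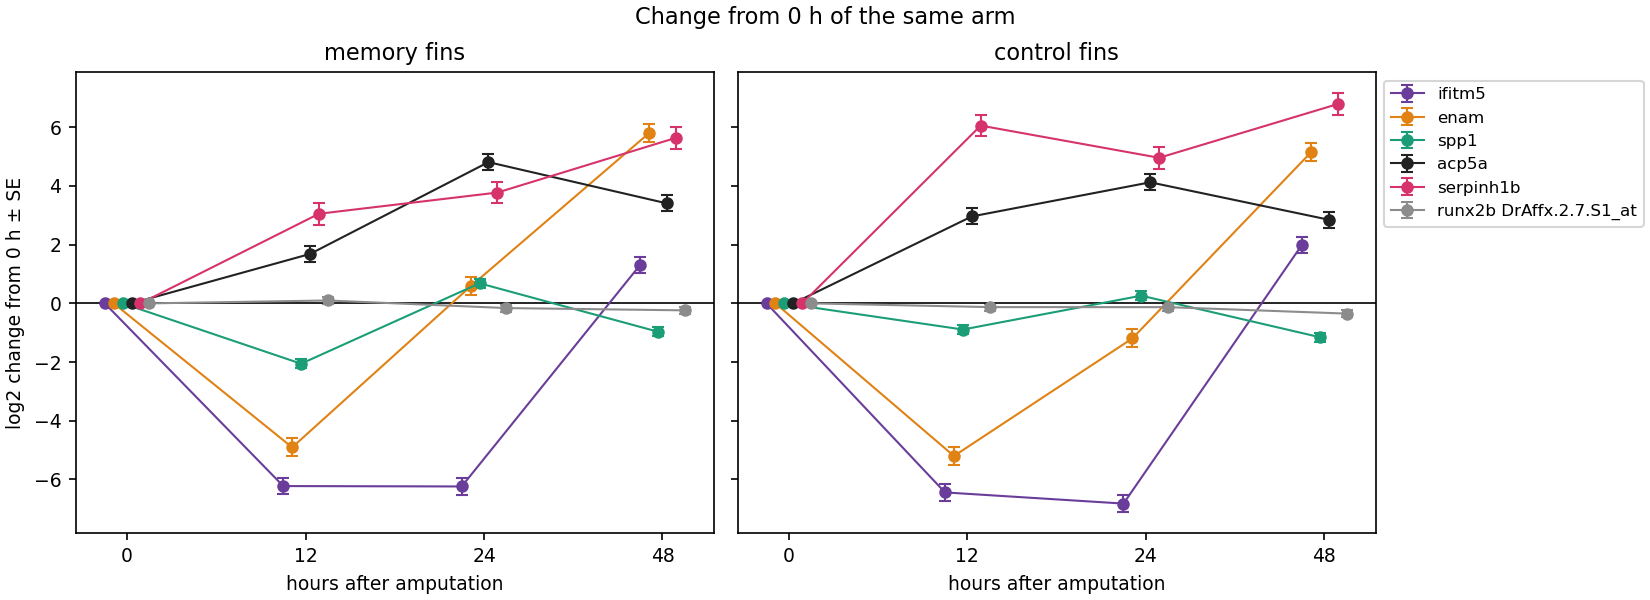
Log2 change from 0 h of the same arm ± SE (vertical axis) for the 6 tested probe sets at each time after amputation, memory fins left and control fins right. At 12 h the lines for ifitm5 and enam run down to between -4.91 and -6.44, while serpinh1b and acp5a run up, and at 48 h enam and serpinh1b are the highest lines in both panels.

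Of the 21 other collagen processing genes measured, 8 were higher and 9 lower in memory fins at 12 h against 0 h, near the shares of all tested probe sets (35.6% higher and 34.0% lower). In control fins 12 were higher and 6 lower, where 36.0% of all were higher and 32.5% lower. At 48 h 17 were higher and 3 lower in memory fins, where 37.8% of all tested probe sets were higher and 32.0% lower, and 16 were higher and 2 lower in control fins, where 37.5% were higher and 32.5% lower. The prolyl 4-hydroxylase gene p4ha1b, whose enzyme stabilises the collagen helix, was at 3.97 ± 0.22 in memory and 3.86 ± 0.22 in control fins at 48 h. The lysyl oxidase gene loxa, whose enzyme crosslinks collagen, fell by 4.55 ± 0.31 in memory and fell by 4.75 ± 0.31 in control fins at 12 h, and from 24 to 48 h it gained 4.10 ± 0.31 and 4.71 ± 0.31. Serpinh1b is also on the list of heat shock factors and cytosolic chaperones, of which 15 of 22 were higher and none lower in memory fins at 12 h, and 17 were higher and none lower in control fins. Others among the largest rises were hsp90aa1.2, at 3.94 ± 0.29 in memory and 6.05 ± 0.29 in control fins, and hsp70.3, at 4.06 ± 0.36 and 4.88 ± 0.36.

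Counted over the 6 tested member probe sets, 5 were called at 12 h against 0 h in memory fins, where 69.6% of all tested probe sets were, and 5 in control fins, where 68.5% were. At 24 h 4 were called in memory fins (68.3% of all) and 4 in control fins (68.4% of all), and at 48 h 5 in memory fins (69.8% of all) and 6 in control fins (69.9% of all). These counts are near the background. The further call in control fins at 48 h was that of runx2b, whose values there lay under the floor. Between 24 and 48 h 5 of 6 were called in each arm, against 27.4% of all probe sets in memory and 30.9% in control fins. Between 12 and 24 h 3 were called in memory fins (39.6% of all) and 4 in control fins (20.1% of all). Enam, acp5a and spp1 were higher in both arms in that step, and serpinh1b was the further call in control fins. The members were chosen with earlier results of these data known. Their counts, here and between the arms below, therefore cannot show that these genes changed more often than others.

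Memory fins were next set against control fins at each time, which asks whether past streptozocin treatment goes with a different level. At 0 h none of the 6 was called, against 5.52% of all tested probe sets. Enam (-0.84 ± 0.31, adjusted p = 0.117) and spp1 (0.34 ± 0.16, adjusted p = 0.222) had an unadjusted p under 0.05 by limma. The share of all probe sets at that unadjusted threshold was not counted, and 5.52% is not its background. Without memory replicate 3 at 0 h, the array with the high enam value, enam was called lower in memory fins (-1.25, adjusted p = 0.0179).

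At 12 h 3 of the 6 were called lower in memory fins and none higher, while 20.7% of all tested probe sets were lower and 15.5% higher (36.2% in all). Serpinh1b showed the widest gap at -2.66 ± 0.37 (adjusted p = 1.51e-05), the eighth in size of all tested probe sets, which is 6.31-fold less signal. Acp5a was at -1.12 ± 0.27 (adjusted p = 0.00314) and spp1 at -0.82 ± 0.16 (adjusted p = 0.000371). For each of the 3 genes all 3 memory arrays at 12 h lay under all 3 control arrays, as held for 22.7% of all tested probe sets, and each call held without any 1 of the 24 arrays. Enam was at -0.54 ± 0.31 and ifitm5 at 0.39 ± 0.28, neither called, both with all values at that time under the floor. The enam arrays of memory fins also lay under those of control fins. The tested runx2b probe set was at 0.19 ± 0.12, not called (adjusted p = 0.249). Its memory arrays lay above its control arrays, all close to the floor, and the share of all probe sets higher in this way is not given here. Keratinocyte markers also differed at 12 h: their summed signal was 170.2 to 179.1 in memory fins against 141.9 to 165.1 in control fins, again divided by 1000, and 8 of 15 were called higher and 1 lower. The summed signal of macrophage and neutrophil markers, mostly that of cd74a and apoeb, was lower in memory fins. It was 15.56 to 15.84 there against 15.96 to 17.02 in control fins. The part of such shifts in the differences of serpinh1b, acp5a and spp1 was not tested.

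At 24 h spp1 had turned round and was the 1 member called, higher in memory fins by 0.76 ± 0.16 (adjusted p = 0.0129), against 3.38% of all tested probe sets. Leaving out an array of control 24 h, replicate 1 (adjusted p = 0.0615) or 2 (0.0741), or of memory 24 h, replicate 2 (0.0557) or 3 (0.0511), ended the call, with the difference then between 0.72 and 0.79. Acp5a (0.85 ± 0.27, adjusted p = 0.0899) and enam (0.94 ± 0.31, adjusted p = 0.0945) had every memory array above every control array, as did 13.4% of all tested probe sets, without being called. Serpinh1b was at -0.84 ± 0.37 (adjusted p = 0.228), and its arrays overlapped. Ifitm5 was at 0.75 ± 0.28 (adjusted p = 0.151), with overlapping arrays and all values under the floor.

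At 48 h none of the 6 was called, against 5.69% of all tested probe sets. Spp1 (0.53 ± 0.16, adjusted p = 0.0525), acp5a (0.72 ± 0.27, adjusted p = 0.126) and serpinh1b (-0.80 ± 0.37, adjusted p = 0.217) had an unadjusted p under 0.05 by limma. The share of all probe sets at that unadjusted threshold was not counted, and 5.69% is not its background. The spp1 difference became called in 7 of 24 fits with an array left out and under 3 other settings. Averaged over the 4 times, serpinh1b alone was called, at -0.99 ± 0.19 (adjusted p = 0.000519), against 32.8% of all tested probe sets. The 12 h difference is the largest term of that average, and the value at 0 h was 0.35 ± 0.37, not called.

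**Figure D3:**
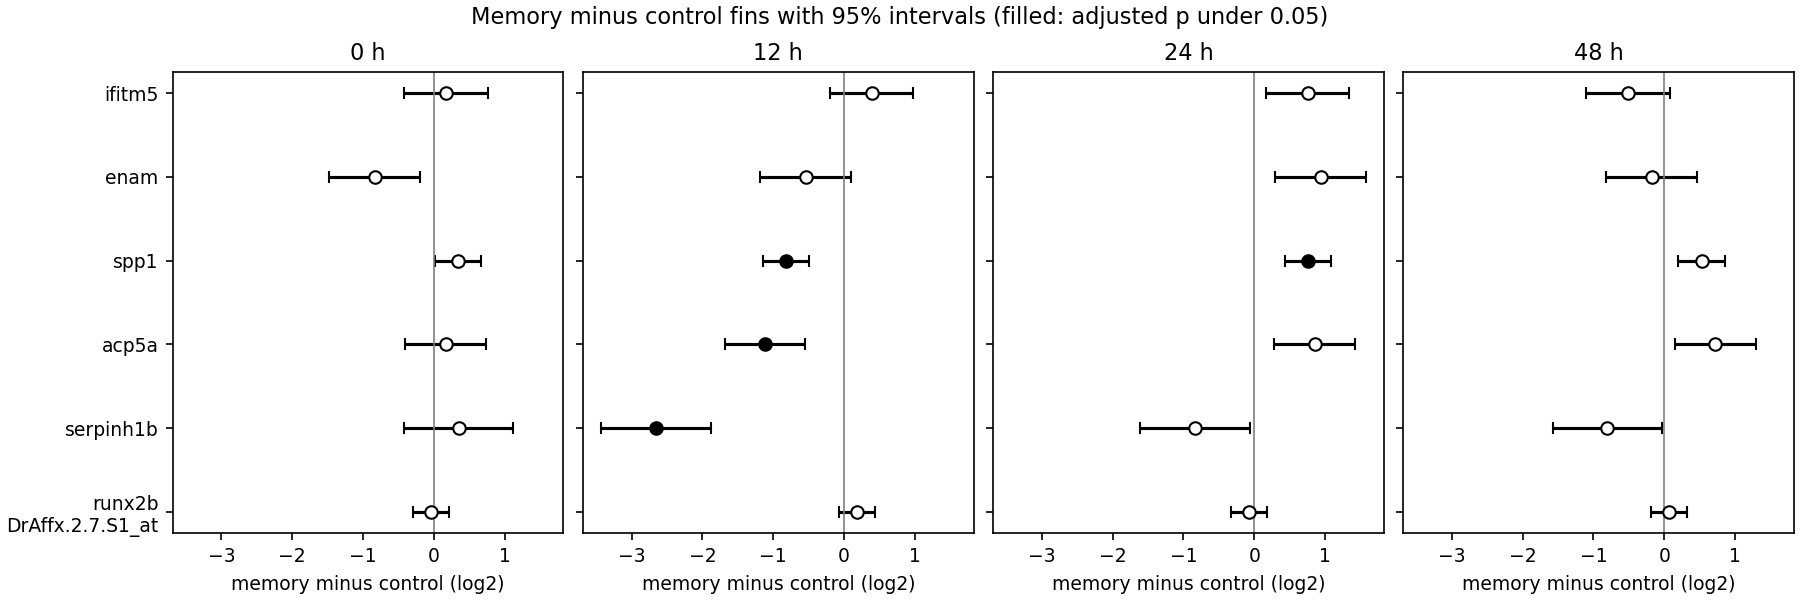
Memory minus control fins on the log2 scale (horizontal axis) at 0, 12, 24 and 48 h for the 6 tested probe sets, with 95% intervals from limma and filled points where the adjusted p was under 0.05. Filled points stand at the left of 0 at 12 h for spp1, acp5a and serpinh1b, and at the right of 0 at 24 h for spp1.

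The difference of the changes themselves was tested next, as the change in memory fins minus the change in control fins. For 12 h against 0 h, 3 of the 6 were called lower, against 14.4% of all tested probe sets lower and 23.5% called in either direction. The gain of serpinh1b was smaller in memory fins by 3.00 ± 0.53 on the log2 scale (adjusted p = 0.000439), that of acp5a by 1.28 ± 0.39 (adjusted p = 0.0211), and the fall of spp1 was deeper by 1.16 ± 0.22 (adjusted p = 0.000877). The acp5a call ended when control 0 h replicate 1 (adjusted p = 0.0555) or 2 (0.0643) or memory 12 h replicate 1 (0.0620) was left out, and where only the groups compared were fitted (0.0783).

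For 24 h against 12 h, 4 of the 6 were called higher, against 9.49% of all tested probe sets higher and 16.4% called in either direction. Acp5a gained 1.97 ± 0.39 more in memory fins (adjusted p = 0.00202) and spp1 gained 1.59 ± 0.22 more (adjusted p = 0.000106). Enam gained 1.48 ± 0.43 more (adjusted p = 0.0243), a call lost without control 24 h replicate 2 (adjusted p = 0.0737), memory 12 h replicate 2 (0.0524) or memory 24 h replicate 1 (0.0555). Its 12 h values lay under the floor in both arms, so neither arm's gain from 12 h is fully measured, and its difference at 24 h alone was not called. Serpinh1b changed by 0.72 ± 0.37 in memory fins, which was not called (adjusted p = 0.131), and by -1.10 ± 0.37 in control fins, and these changes differed by 1.82 ± 0.53 (adjusted p = 0.0228), a call lost without any 1 of 6 arrays (adjusted p up to 0.0672). The 12 h arrays enter both this step and the one before it, with opposite signs, so the calls of the 2 steps are not independent.

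Over longer spans the arms were hard to separate. For 24 h against 0 h only enam was called, 1.77 ± 0.43 higher in memory fins (adjusted p = 0.0330, against 2.50% of all tested probe sets), and the call was lost without any 1 of 9 arrays (adjusted p up to 0.0898). For 48 h against 0 h none of the 6 was called (4.38% of all tested probe sets were), and for 48 h against 24 h none was (0.0394% of all). An unadjusted p under 0.05 by limma was seen for serpinh1b (-1.15, adjusted p = 0.223) for 48 h against 0 h. In the 24 to 48 h step it was seen for ifitm5 (-1.27, adjusted p = 0.425) and enam (-1.12, adjusted p = 0.545). The shares of all probe sets at that unadjusted threshold were not counted. The 24 h values of ifitm5 lay under the floor in both arms, so its difference in the 24 to 48 h step is not fully measured. For 48 h against 0 h the 95% interval of the difference ran from -1.52 to 0.15 for ifitm5 and from -2.25 to -0.06 for serpinh1b.

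Of the 21 other collagen processing genes, 13 were lower and 3 higher in memory than in control fins at 12 h, with a median of -0.46 against -0.02 for all probe sets, of which 20.7% were lower and 15.5% higher. Those lower included p4ha2 (-1.35 ± 0.23) and p4ha1b (-1.02 ± 0.22), subunits of prolyl 4-hydroxylase, and crtap (-1.03 ± 0.09), a partner of prolyl 3-hydroxylase. Of the 21 bone matrix genes 9 were lower and 1 higher, with spp1, the mineral regulator ankha (-0.76 ± 0.17), the osteoblast cadherin cdh11 (-0.70 ± 0.16) and the periostin gene postnb (-0.61 ± 0.12) at the head. Of the 22 heat shock genes 6 were lower and none higher, a share lower that is near that of all probe sets, and among them were hsp90aa1.2 (-1.78 ± 0.29) and fkbp4 (-1.11 ± 0.13), a cochaperone of Hsp90. Of 21 osteoblast transcription factors 5 were lower, also near the share of all probe sets, and none higher. The widest gaps on that list were those of dlx5a (-1.64 ± 0.41), msx2b (-1.38 ± 0.30) and twist3 (-1.19 ± 0.16).

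The osteoclast list did not move as acp5a did at 12 h. Of 13 measured, 4 were higher and 2 lower in memory than in control fins, where 15.5% of all tested probe sets were higher and 20.7% lower. The collagenase gene mmp13a (3.06 ± 0.30), the gelatinase gene mmp9 (1.50 ± 0.13) and csf1b (1.46 ± 0.13) were higher, and acp5a and the cathepsin gene ctsk (-0.63 ± 0.08), whose enzyme cleaves bone collagen, were lower. Both metalloproteinases are also made by wound epidermis and macrophages.

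**Figure D4:**
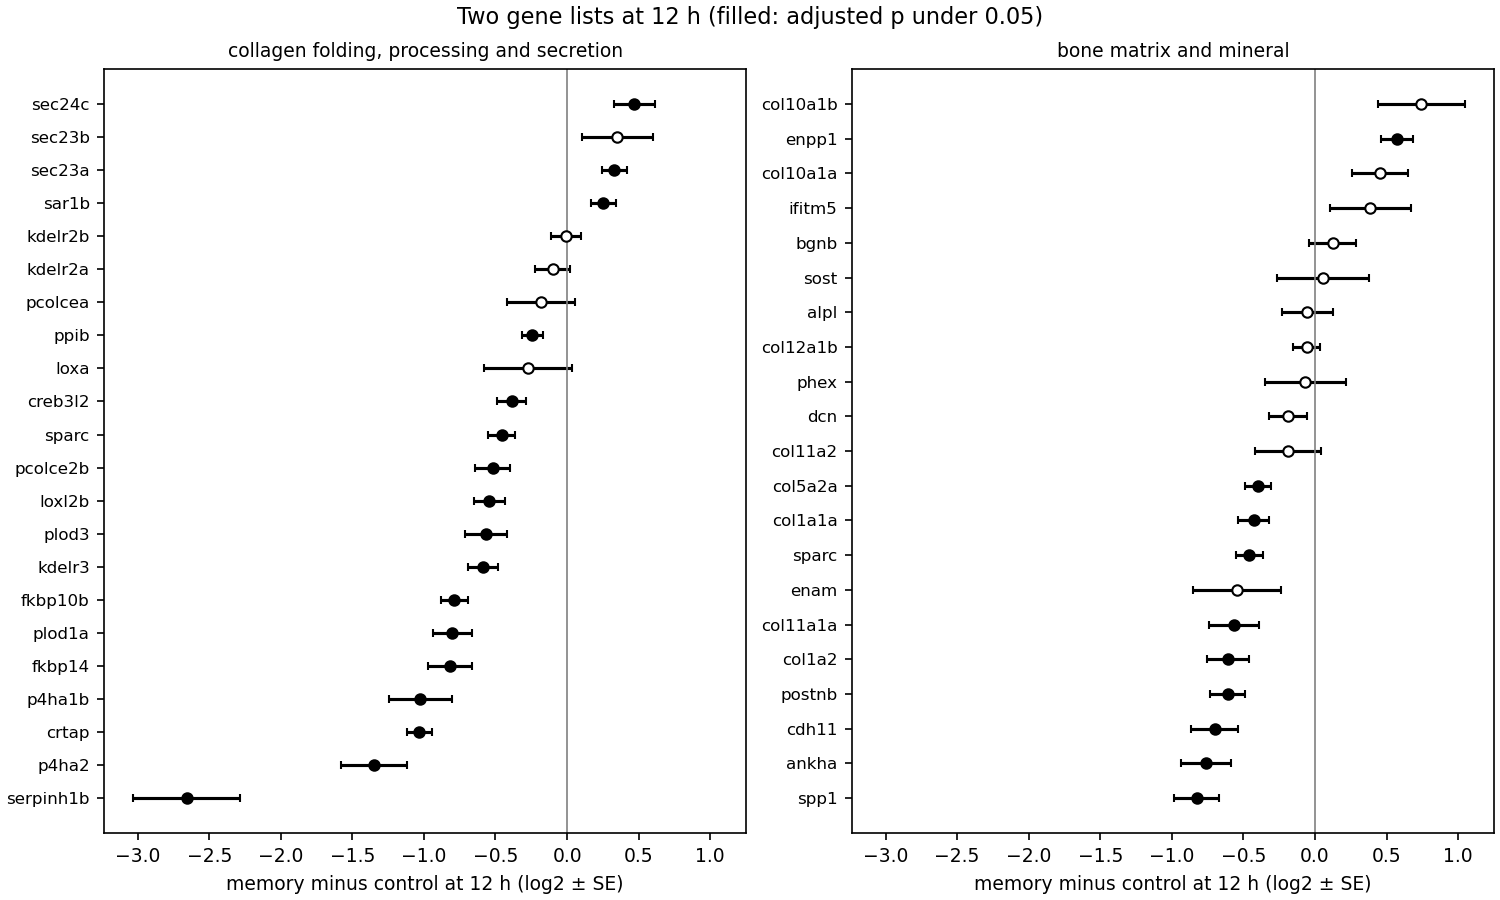
Memory minus control fins at 12 h (horizontal axis, log2 ± SE) for the 22 measured genes of collagen folding, processing and secretion (left) and the 21 of bone matrix and mineral (right), sorted by size and filled where the adjusted p was under 0.05. Serpinh1b stands furthest to the left of its panel at -2.66, with p4ha2, crtap and p4ha1b after it, and spp1 at -0.82 ends the other panel.

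Correlations over the 24 arrays describe which genes ran most like each member among 7168 named probe sets, and the arrays share the 8 groups, so r mostly follows the group means. The nearest to ifitm5 were sema3d, a secreted guidance protein (r = 0.990), sv2bb, a vesicle protein (r = 0.988), and col10a1a (r = 0.987). At 12 and 24 h sema3d (3.33 to 3.73) and sv2bb (2.90 to 3.95) lay under the floor of 4, as ifitm5 did. That part of their likeness is between signals under the floor. The nearest to enam were col11a1a, a fibrillar collagen (r = 0.968), cpxm1a (r = 0.964) and ptgr1.1 (r = 0.963). The nearest to acp5a were edc4 (r = 0.950), aldh1a2, which makes retinoic acid (r = 0.949), and ckba, a creatine kinase (r = 0.949). The nearest to serpinh1b were poglut2 (r = 0.969), hdac8, a histone deacetylase (r = 0.967), and the endoplasmic reticulum chaperone pdia4 (r = 0.960). Spp1 had no close match, its nearest being mapk14a at r = 0.736, lipg at 0.715 and col17a1b at 0.707. The nearest to the tested runx2b probe set, which spanned less than 1 log2 unit, were alg11 (r = 0.910), ola1 (r = 0.908) and phf8 (r = 0.893). These 3 also lay near the floor of 4, at 3.65 to 4.31, 3.71 to 4.57 and 3.43 to 4.47. The likeness is therefore between near-floor signals and does not show genes expressed like runx2b. Among the members, ifitm5 and enam ran together at r = 0.782 and acp5a and serpinh1b at r = 0.743, while ifitm5 and acp5a were at r = -0.438.

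**Figure D5:**
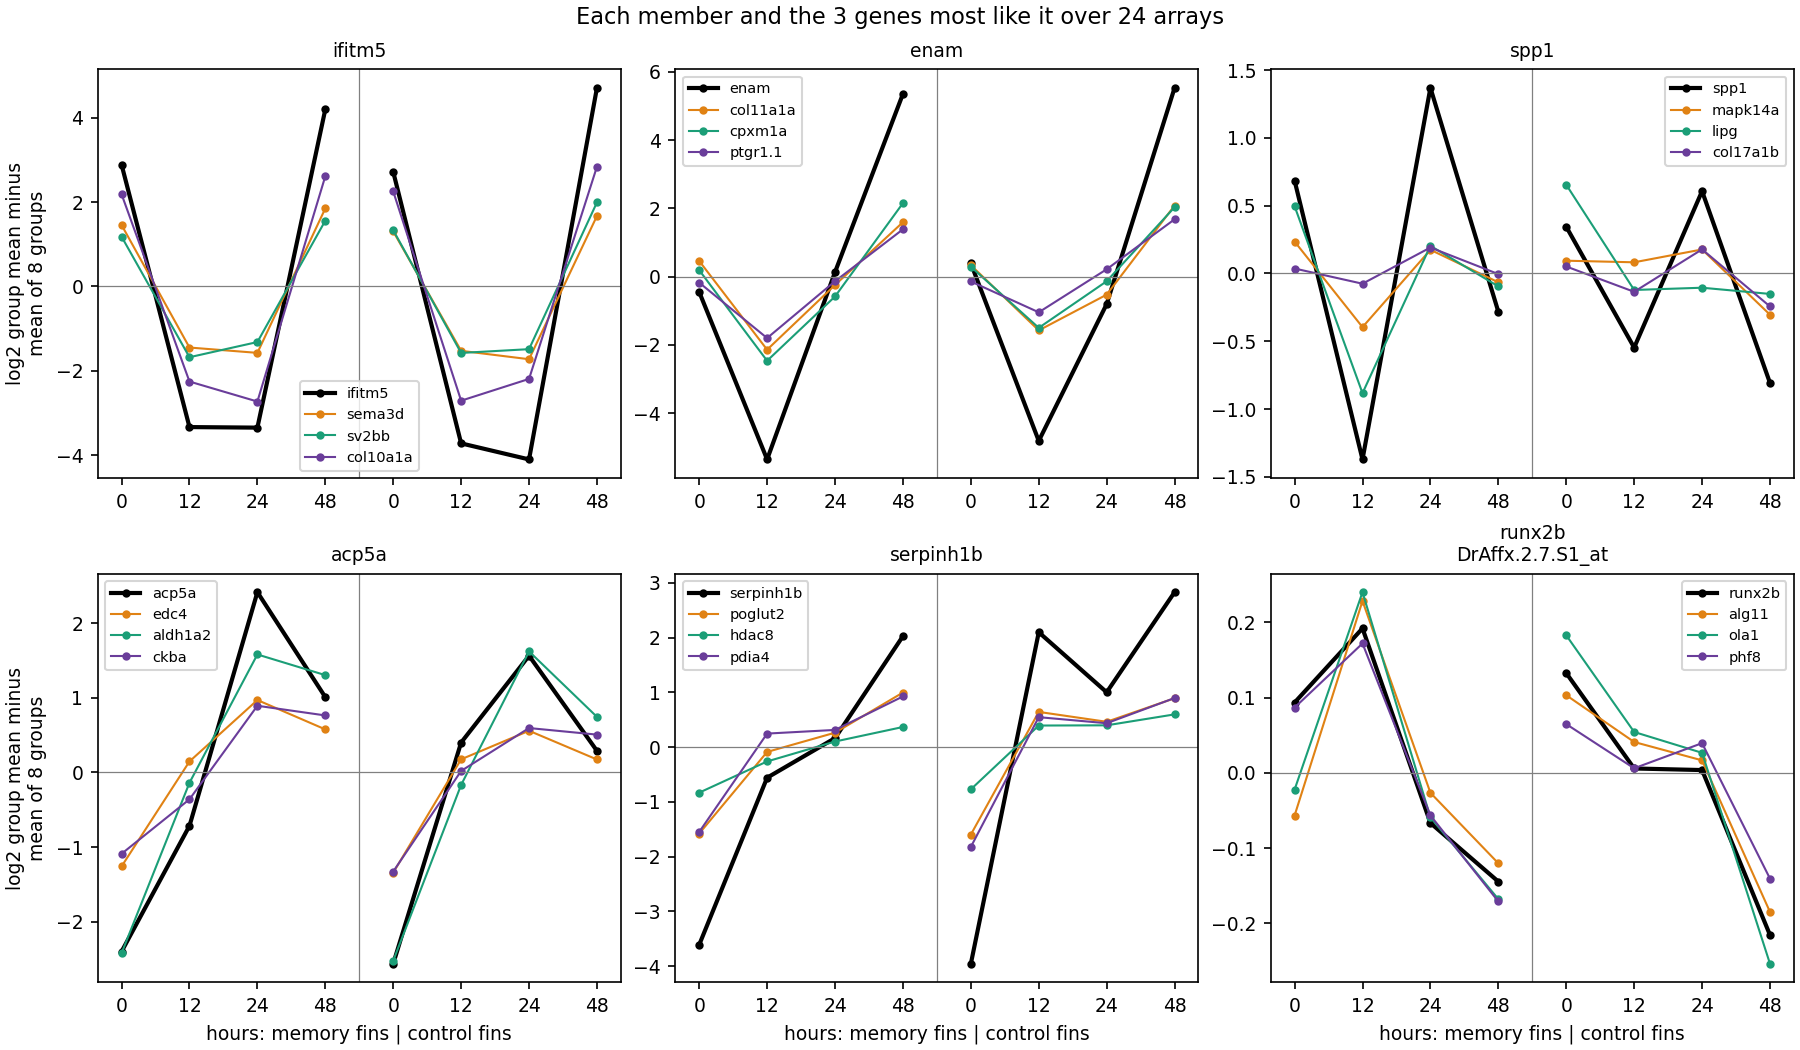
Log2 group mean minus the mean of the 8 group means (vertical axis) for each tested member (black) and the 3 genes most like it (coloured), at 0, 12, 24 and 48 h in memory fins (left of the grey line) and control fins (right). The lines of sema3d, sv2bb and col10a1a fall and return with ifitm5, though less deeply, and those around spp1 follow it loosely.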

How the data were processed

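Per the submitters' processing notes, the authors made the deposited log2 signals in Partek with GCRMA, from 6 ug of RNA per array, per the labels' protocols. That method subtracts a background modelled on probe sequence, equalises the arrays and combines the probes of a set, which leaves dim probe sets on a floor of low values. Versions are not given in the sources used here. The 115 array controls among 15617 probe sets were dropped, and those with a log2 signal of at least 4 on at least 3 arrays were tested (10140 kept, 5362 left out). The platform annotation gave the symbols, brought up to date through the gene number for 10711 probe sets. Of all probe sets 10795 had 1 symbol, 135 had several and 4572 had none.

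Means of 8 groups were fitted to 24 arrays with limma 3.58.1 (R 4.3.3, lmFit, contrasts, eBayes), with Benjamini-Hochberg adjustment over all tested probe sets in each comparison. The script was tested on simulated data. The members and gene lists were chosen with earlier results of these data known. A listed gene with several probe sets is represented by the brightest, up to 4 called genes of a list may be named per comparison by size of change, genes of the lists may be followed across times, and the 3 nearest genes by correlation are named for each member. Lists of ER chaperones and of bone and fin ray signals were also counted. Of 20 measured ER chaperone genes 15 were higher and 2 lower at 12 h against 0 h in memory fins and 14 higher and 2 lower in control fins. Of 23 signal genes 5 were higher and 10 lower in memory fins and 4 higher and 8 lower in control fins, where 35.6% of all tested probe sets were higher and 34.0% lower in memory fins and 36.0% and 32.5% in control fins. The marker lists were of macrophages and neutrophils, keratinocytes, cartilage, muscle, blood, endothelium, pigment cells, nerve and Schwann cells. Alternatives were no filter, a filter at 6, trend and robust eBayes, no moderation, median centring, repeated quantile normalisation, a replicate block, a fit of only the groups compared, a 2-fold threshold, the mean of a gene's probe sets, and each array left out in turn.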

Additional observations from a re-analysis of the deposited data

Results flagged for a closer look

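A change with time that differed between memory and control fins by limma's test of the difference (adjusted p under 0.05) was seen 8 times, in 4 members. For 12 h against 0 h the memory change minus the control change was -1.28 ± 0.39 for acp5a (adjusted p = 0.0211), -1.16 ± 0.22 for spp1 (adjusted p = 0.000877) and -3.00 ± 0.53 for serpinh1b (adjusted p = 0.000439). For 24 h against 12 h it was 1.97 ± 0.39 for acp5a (adjusted p = 0.00202), 1.59 ± 0.22 for spp1 (adjusted p = 0.000106), 1.48 ± 0.43 for enam (adjusted p = 0.0243) and 1.82 ± 0.53 for serpinh1b (adjusted p = 0.0228). For 24 h against 0 h it was 1.77 ± 0.43 for enam (adjusted p = 0.0330). Of all tested probe sets 23.5% were called for 12 h against 0 h, 16.4% for 24 h against 12 h and 2.50% for 24 h against 0 h. With an array left out, the acp5a call for 12 h against 0 h was lost in 3 of 24 fits. For 24 h against 12 h the enam call was lost in 3 and the serpinh1b call in 6. The enam call for 24 h against 0 h was lost in 9. Each group had 3 arrays, and the 12 h arrays enter 7 of the 8 tests. For enam the 12 h values of both arms lay under the log2 floor of 4, so its gain from 12 h is not fully measured in either arm.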

How the results depend on the processing

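Over 120 member changes and their alternatives, 3951 of 4040 values kept their side of the threshold, 50 lost the call and 39 gained it. For each change 24 alternatives left out 1 array. Where that array was in no group of the comparison, the log2 change stayed the same by construction. So did the mean of a gene's probe sets for a member with 1 probe set. Part of the kept values was therefore fixed in advance. Where a value was called in either fit, 0 reversed direction. Values called in neither fit counted as kept even where their direction changed. An example is acp5a between the arms at 0 h, at 0.16 and down to -0.04 with an array left out. The number of members called in the difference of the change from 0 to 24 h was 0 with no filter, with no moderation and where only the groups compared were fitted, against 1. Between the arms at 48 h it was 1, against 0, with the stricter filter, with trend and robust eBayes and with median centring, where spp1 was called higher in memory fins. It was also 1 with only the groups compared, but there ifitm5 was called lower. Averaged over times it was 2 with the stricter filter, trend and robust eBayes, median centring or repeated quantile normalisation, and 0 at 2-fold or more, against 1. At 24 h it was 2 with only the groups compared and 0 at 2-fold or more, against 1, and the difference of the change from 0 to 48 h gave 1 with only the groups compared, against 0. Leaving out each array in turn gave 0 to 1 members between the arms at 0 h, 0 to 2 at 24 h, 0 to 1 at 48 h and 1 to 2 averaged, and for the difference of changes 0 to 1 from 0 to 24 h and 2 to 4 from 12 to 24 h. The cause of these changes was not tested, apart from the 2-fold threshold, which by construction drops smaller changes such as that of spp1 at 12 h. Same-numbered arrays of 2 groups correlated at -0.170 to 0.277 in their deviations over all probe sets. All 3 pairs exceeded 0.1 in 1 of 14 group pairs, control fins at 24 and 12 h (0.150 to 0.226). By this rule a pairing by number was not found across the groups as a whole. In memory fins at 48 and 24 h, though, same-numbered pairs (0.0550 to 0.277) all exceeded differently numbered ones (-0.254 to 0.0541). Between the arms at 12 h same-numbered pairs were at 0.0537 to 0.234 and differently numbered ones at -0.288 to 0.0976. In control fins at 48 and 24 h these were 0.0771 to 0.272 and -0.291 to 0.150. Between the arms at 48 h same-numbered pairs were all negative (-0.170 to -0.0440). With the replicate number as a block no call of a member changed, and serpinh1b between the arms at 12 h had an adjusted p of 2.32e-06. Centring moved the median of all probe sets by at most 0.10. Signals under a log2 value of 4, as for ifitm5 at 12 and 24 h, limit every change that starts or ends there.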

Other observations

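Serpinh1b held its 3 arrays in the same order in all 6 groups of cut fins, with replicate 1 above replicate 2 and replicate 2 above replicate 3, as the values at 12, 24 and 48 h show. This was looked for after the values had been seen. Of 10140 tested probe sets 7 do the same (0.0690%), and 3 of them are among the 22 heat shock genes measured, namely serpinh1b, dnajb1b, a cochaperone of Hsp70, and hsp90aa1.2. At 12 h dnajb1b had 9.38, 8.35 and 7.95 in memory fins and 10.92, 9.78 and 8.45 in control fins, and hsp90aa1.2 had 10.25, 9.89 and 9.38 in memory fins and 11.87, 11.61 and 11.38 in control fins. At 0 h neither arm held that order in serpinh1b. The other 4 are insra, brdt, gmcl1 and a probe set without a symbol, and the labels do not say what the replicate numbers stand for.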
